A study of Mus musculus with 2 samples.

Results

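The regions described here are places in the mouse genome where CUT&Tag for the transcription factor RUNX2 gave a peak in both replicate libraries, at an end of a single protein-coding gene. They were chosen by merging peaks of the 2 replicates that overlap by at least 1 bp, keeping merged regions with peaks of both (shared regions), and taking the midpoint of the widest replicate 1 peak as the position. A region was kept when its position, on chromosomes 1 to 19, lay within 1 kb of an end of exactly 1 protein-coding gene. This gave 4766 of the 17836 shared regions on these chromosomes (26.7%, 95% Wilson interval 26.1 to 27.4) and of 18133 shared regions in all. The chromatin came from MC3T3-E1, an established line of mouse osteoblast precursors, left untreated. Both libraries belong to 1 group. No control library and no second condition were analysed here, and the labels name no genetic change. In CUT&Tag an antibody guides the transposase Tn5 to its target, where the enzyme cuts the DNA and adds sequencing adapters. The deposited lists hold 26853 peaks in replicate 1 and 27287 in replicate 2, which give position and width only. Peak heights and read depth are therefore unknown. Whether separate cultures were used is not in the labels, so differences between the replicates may be technical only. Peak lists hold no expression values, so the cell type could not be checked against marker RNA.

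RUNX2 is a Runt-domain transcription factor that is required for bone formation. It binds DNA as a dimer with CBFB, at a short core usually written TGTGGT, or ACCACA on the other strand. Promoters are the stretches around the start of transcription where RNA polymerase II is loaded. Most promoters of broadly expressed mouse genes are rich in the dinucleotide CpG and lack a TATA box, whereas many promoters of tissue-specific genes are poor in CpG. Tn5 also cuts open chromatin, and promoters are among the most open sites of a genome. The part of such cutting in the peaks was not tested, with no control library analysed here.

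The promoter sequences of 6 genes with such a region at their start show the range of what the peaks covered. Each window runs from 250 bases before the listed start of transcription to 50 after it, 5′ to 3′ along the gene, from RefSeq on GRCm38.p6, and capitals mark the RUNX core on either strand. Runx2 and Spp1 are shown as the osteoblast genes among 8 followed throughout that had a region of this kind. Gsto1, which encodes a glutathione transferase, and Ect2, which encodes a protein needed for cytokinesis, were among the 5 start regions with the widest peaks whose window holds the core. Ubb, which encodes ubiquitin, and Dusp1, which encodes a phosphatase of MAP kinases, were among the 3 with the widest peaks whose window does not.
Runx2: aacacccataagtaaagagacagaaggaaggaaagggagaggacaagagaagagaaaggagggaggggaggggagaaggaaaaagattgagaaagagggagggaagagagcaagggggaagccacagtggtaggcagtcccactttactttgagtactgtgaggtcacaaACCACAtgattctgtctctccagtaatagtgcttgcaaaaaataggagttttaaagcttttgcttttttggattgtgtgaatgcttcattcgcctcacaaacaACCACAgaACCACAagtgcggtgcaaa
Spp1: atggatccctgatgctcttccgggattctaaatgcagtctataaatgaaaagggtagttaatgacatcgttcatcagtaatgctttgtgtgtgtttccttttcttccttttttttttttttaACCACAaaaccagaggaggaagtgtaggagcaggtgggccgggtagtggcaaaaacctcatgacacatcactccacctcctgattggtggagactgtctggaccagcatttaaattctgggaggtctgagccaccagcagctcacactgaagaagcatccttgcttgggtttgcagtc
Gsto1: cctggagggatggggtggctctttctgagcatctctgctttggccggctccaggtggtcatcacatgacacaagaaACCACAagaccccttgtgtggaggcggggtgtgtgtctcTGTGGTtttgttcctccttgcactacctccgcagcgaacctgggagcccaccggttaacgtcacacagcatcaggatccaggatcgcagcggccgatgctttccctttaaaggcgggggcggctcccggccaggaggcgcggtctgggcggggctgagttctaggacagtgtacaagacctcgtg
Ect2: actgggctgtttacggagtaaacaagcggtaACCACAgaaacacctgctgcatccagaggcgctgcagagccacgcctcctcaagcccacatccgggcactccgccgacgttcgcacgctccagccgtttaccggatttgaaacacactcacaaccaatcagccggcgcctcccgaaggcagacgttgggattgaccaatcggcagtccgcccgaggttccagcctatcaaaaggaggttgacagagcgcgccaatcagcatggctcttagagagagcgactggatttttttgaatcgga
Ubb: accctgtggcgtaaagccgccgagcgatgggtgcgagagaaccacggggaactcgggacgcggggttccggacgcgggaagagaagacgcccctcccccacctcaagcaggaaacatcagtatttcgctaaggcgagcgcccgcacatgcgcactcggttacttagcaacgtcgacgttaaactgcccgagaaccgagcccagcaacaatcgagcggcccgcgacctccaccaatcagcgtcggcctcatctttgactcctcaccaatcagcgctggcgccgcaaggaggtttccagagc
Dusp1: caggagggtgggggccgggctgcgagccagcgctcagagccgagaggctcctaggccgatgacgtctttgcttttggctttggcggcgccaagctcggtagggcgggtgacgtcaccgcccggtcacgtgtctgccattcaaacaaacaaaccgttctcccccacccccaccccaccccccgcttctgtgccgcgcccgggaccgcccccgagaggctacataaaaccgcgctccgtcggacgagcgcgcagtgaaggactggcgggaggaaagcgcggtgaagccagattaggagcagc
The Runx2 window (chr17:44814578-44814877, minus strand) holds the core 3 times, 80 bases before the start and 23 and 31 bases after it. Its peaks were 528 and 458 bp wide (replicate 1 given first, here and below), and they covered 283 and 199 of the 300 bases. The core before the start lay under both peaks. The replicate 2 peak reached neither the listed start nor the cores after it, and the replicate 1 peak held all of the first of these and 2 bases of the other. The Spp1 window (chr5:104434861-104435160, plus strand) holds it once, 128 bases before the start, in a stretch poor in CpG. The Spp1 peaks were 534 and 693 bp wide and covered 277 and 300 bases of the window. The Gsto1 window (chr19:47854723-47855022, plus strand) holds the core 174 and 135 bases before the start, and the Ect2 window (chr3:27153829-27154128, minus strand) holds it 219 bases before. The windows of Gsto1, Ect2, Ubb (chr11:62550921-62551220, plus strand) and Dusp1 (chr17:26508423-26508722, minus strand) lay wholly inside the peaks of both replicates. Very wide peaks thus covered promoter windows with the RUNX core and promoter windows without it. Sequence under the peaks outside the windows was not searched. The other start regions with the widest peaks and a core were those of Trappc3, Fbf1 and Fem1a, with the core 222 and 75, 65, and 190 bases before the start. All of these lay under the peaks of both replicates except the Trappc3 core at 75 bases, which was under that of replicate 1 only. Among those without one was Alyref2, whose peaks covered only 110 and 144 bases of its window. A match to these letters describes the sequence and does not show a bound site.

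Regions at one coding gene end lay almost wholly at starts of transcription. The strand of the gene was known for 16457 of the 20665 protein-coding genes on chromosomes 1 to 19, through the promoter table. Of the 3889 regions at such genes, 3747 were at the start (96.3%, 95% Wilson interval 95.7 to 96.9) and 142 at the end of transcription. The other 877 regions were at genes whose strand was not in that table, and they are counted below without a side. A region of this kind lay at the start of 3724 genes, 22.6% of the 16457, and at the end of 142 genes, 0.863%. At either end, and with strand unknown included, 4697 genes had one, 22.7% of all 20665.

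The midpoints at starts were concentrated around the annotated end of the gene, with a longer tail into the gene. In replicate 1 the median midpoint was 12 bp inside the gene, with quartiles 135 bp before it and 160 bp inside, and the middle 90% ran from -373 to 605 bp. In replicate 2 the median was 9 bp inside and the quartiles were 135 bp before and 163 bp inside. The overlap of peaks that the choice of regions requires ties these midpoints to those of replicate 1, so this is a description and not a second measurement. Of the 3747 start regions, 2731 (72.9%, 71.4 to 74.3) had their replicate 1 midpoint within 250 bp of the gene end, and 1799 (48.0%, 46.4 to 49.6) had it outside the gene. Measured from the start listed in the promoter table in place of the outermost annotated base, the median midpoint lay before the start, at -38 bp in both replicates (n = 3632 regions). The listed start itself lay under the widest peaks of both replicates in 2569 of these (70.7%, 69.2 to 72.2).

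**Figure D1:**
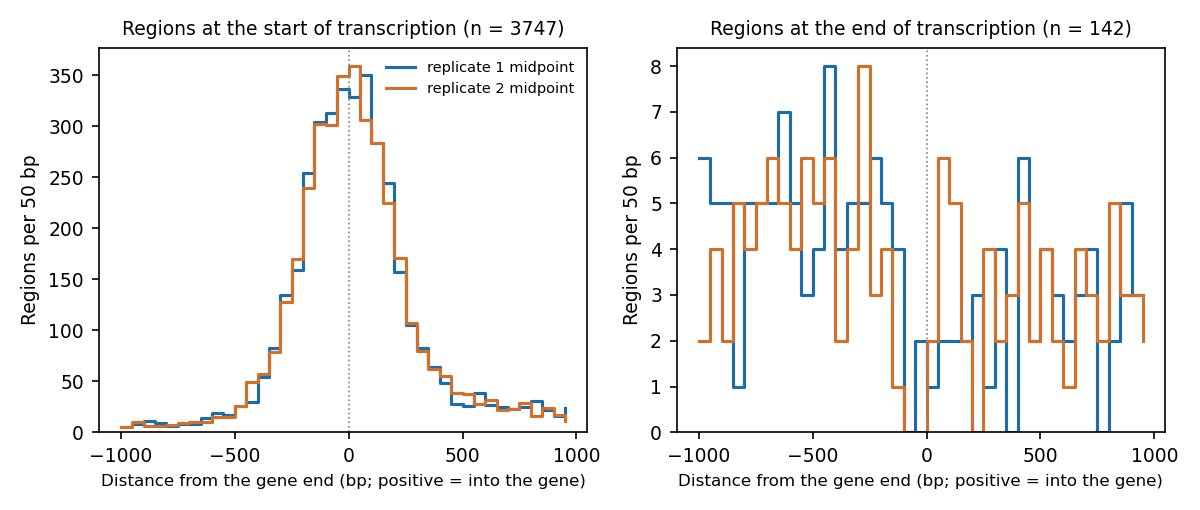
Number of regions per 50 bp (vertical axis) by distance of the peak midpoint from the gene end in bp (horizontal axis, positive into the gene), for regions at starts (left, n = 3747) and ends (right, n = 142) of transcription, with 1 line per replicate. Midpoints at starts pile up around 0 in both replicates, while those at ends are spread over the whole distance of 1 kb and more often lie outside the gene.

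The 142 regions at ends of transcription were spread more evenly and were narrower. Only 27 of them (19.01%, 13.4 to 26.3) had the midpoint within 250 bp of the end, and 90 (63.4%, 55.2 to 70.9) lay outside the gene. The choice of regions left out any within 1 kb of an end of a second coding gene. Of the 142, 6 were within 1 kb of another listed start of the same gene. Another coding gene of known strand started 1 to 3 kb away for 12 of the 142. This is a lower limit, because starts of genes without a known strand could not be counted. A noncoding gene end lay within 1 kb of 16 of the 142 (11.3%), against 17.1% of all 4766 regions. The widest of the 142 was also the widest of all 4766 by mean rank of width over both replicates. It lay 860 bp inside the predicted gene Gm20783 (chr9:124422989-124425824), with peaks of 2835 and 1956 bp. Next came regions at Bad, which encodes a BCL2-family protein that promotes cell death (1434 and 1457 bp), Mrpl58, a mitochondrial ribosomal protein gene (1260 and 1292 bp), and Wwc1, the Hippo pathway gene for KIBRA (1136 and 1241 bp). Thbs3, a thrombospondin gene, had one whose midpoint was 998 bp past its end (1123 and 1154 bp). These last genes were chosen after their values were seen, as those with the widest peaks among the 142.

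Genes seldom held more than 1 such region. There were 4629 genes with 1, 67 with 2 and 1 with 3. The gene with 3 was S100a10, which encodes the partner of annexin A2, with regions 765 bp outside and 70 and 986 bp inside the same end. Regions at both ends of the same gene were found for 40 genes. Among them were Got1, which encodes the cytosolic aspartate aminotransferase, Ywhag, a 14-3-3 protein gene, Wnk1, a kinase gene, Kazald1 and Dnajb12. At Got1 the start peaks were 1281 and 1034 bp wide and the end peaks 692 and 781 bp. At Wnk1 they were 1438 and 911 bp at the start against 208 and 537 bp at the end. These 5 were picked from the 40 by peak width. For all 5 the start region had the wider peaks in both replicates, which does not describe the rest of the 40.

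Peaks at these regions were of moderate width, and wider than at regions away from gene ends. The median width was 526 bp in replicate 1 and 534 bp in replicate 2 (mean 530.00 ± 5.66, SD, n = 2). Shared regions inside genes had 467.50 ± 2.12 bp, those outside genes 466.50 ± 0.71 bp, and those at ends of several coding genes 608.25 ± 1.77 bp. These gaps were larger than the spread between replicates. Shared regions at noncoding gene ends only had 515.25 ± 19.45 bp, and their gap to the regions described here was smaller than that spread. With 2 libraries no test over samples was made. Within the set, start regions had 537.00 ± 8.49 bp and end regions 443.50 ± 16.97 bp. The middle 50% of widths ran from 371 to 707 bp in replicate 1 and from 379 to 721 bp in replicate 2, and 129 regions (2.71%, 2.28 to 3.21) reached 1000 bp in both.

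The widest regions lay at genes of varied function. After Gm20783 came Ubb (1887 and 1807 bp), Ppp1r13l, which encodes an inhibitor of p53 (2109 and 1766 bp), and Dusp1 (1705 and 1806 bp). They were followed by U2af2, a splicing factor gene (1504 and 1873 bp), Alyref2, for an mRNA export factor (1461 and 1836 bp), and Setd5, for a SET-domain protein (1419 and 2009 bp). Both an early response factor and its corepressor were among the 15: Egr1 had 1537 and 1470 bp, and Nab2, whose product binds EGR proteins, 1504 and 1520 bp. The rest were Cap1, Trappc3, Nptn, Ankrd10, Bad and Orai2. At the other extreme Tbc1d8 had 171 and 161 bp, the ribosomal protein gene Rpl8 168 and 177 bp, and Ccdc32 178 and 169 bp. The midpoints of Gas2l3, Noc3l and Thbs3 lay just inside the limit, at 1000, 999 and 998 bp. Those nearest to Iba57, Rhobtb2 and Plekhb1 lay just outside it, at 1002, 1003 and 1008 bp, and their regions were left out.

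Peaks at one coding gene end recurred in the other replicate more often than peaks elsewhere. Each peak was placed here by its own midpoint, whether shared or not. In replicate 1, 4822 of 5828 such peaks (82.7%, 81.7 to 83.7) overlapped a replicate 2 peak, and in replicate 2, 4825 of 5875 (82.1%, 81.1 to 83.1) overlapped a replicate 1 peak. The mean was 82.4% ± 0.43 (SD, n = 2), against 61.9% ± 1.2 inside genes and 61.1% ± 0.73 outside them. It was higher still at ends of several coding genes, 89.6% ± 0.76. The shares rose with peak width in every class of position. Among the narrowest of 5 width classes (163 to 237 bp in replicate 1), 50.4% (46.6 to 54.1) of peaks at one coding gene end recurred, against 33.3% (31.5 to 35.2) inside genes. In the middle class (337 to 467 bp) the shares were 83.3% (81.1 to 85.3) and 67.8% (65.8 to 69.7), and in the widest they came together at 97.7% (96.8 to 98.3) and 95.7% (94.7 to 96.6). Replicate 2 gave the same order, with 47.5% (43.8 to 51.3) against 31.4% (29.6 to 33.2) in its narrowest class. Midpoints of the replicates were 73 bp apart in the median. The log2 widths correlated with a Pearson r of 0.538 across the 4766 regions, which are not independent samples.

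**Figure D2:**
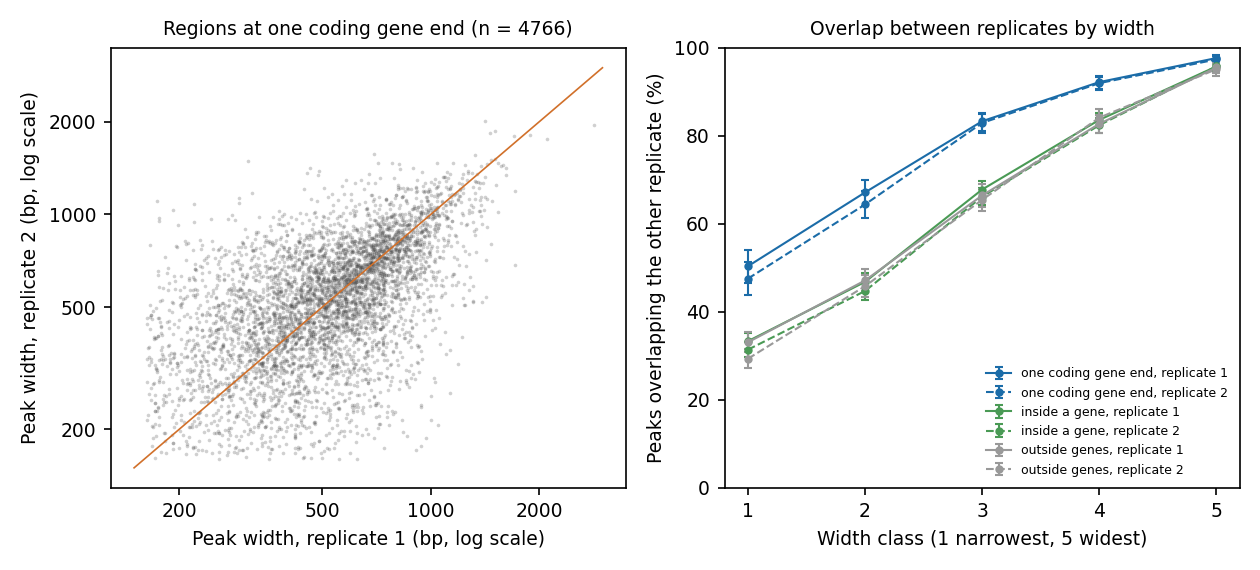
Left, peak width in replicate 2 against replicate 1 (bp, log scales), 1 point per region at one coding gene end (n = 4766), with the line of equal width. Right, share of each replicate's peaks that overlap a peak of the other (%), by width class and by position, with 95% Wilson intervals. In the 4 narrower classes the peaks at one coding gene end lie above those inside and outside genes in both replicates.

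The promoters with such a region were mostly CpG rich, a property the choice of regions did not use. A window was called CpG rich when its observed to expected CpG ratio was at least 0.6 and its GC content at least 50%. Of the 3610 gene starts with a region and a listed window, 2838 (78.6%, 77.2 to 79.9) were CpG rich, against 47.8% of all 14811 listed windows and 23.8% (22.8 to 24.7) of the 8218 windows without a peak in either replicate. At starts of several coding genes with a shared region the CpG-rich share was 84.6% (82.7 to 86.3). With a peak but no shared region at the start, 67.7% (65.2 to 70.1) of windows were CpG rich. The median ratio was 0.81 with a region of the kind described here and 0.28 without any peak. From the other side, 40.1% (38.9 to 41.2) of CpG-rich starts had a region of this kind and 9.99% (9.34 to 10.7) of the others. Another 19.3% of CpG-rich starts had a shared region at ends of several coding genes, and 27.6% (26.5 to 28.6) had no peak. Peak width moved little with CpG content: of the fifth of starts with the widest peaks 81.2% (78.1 to 83.8) were CpG rich, and of the fifth with the narrowest 79.4% (76.3 to 82.2), with the lowest share, 74.2% (70.9 to 77.3), in the class before that.

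**Figure D3:**
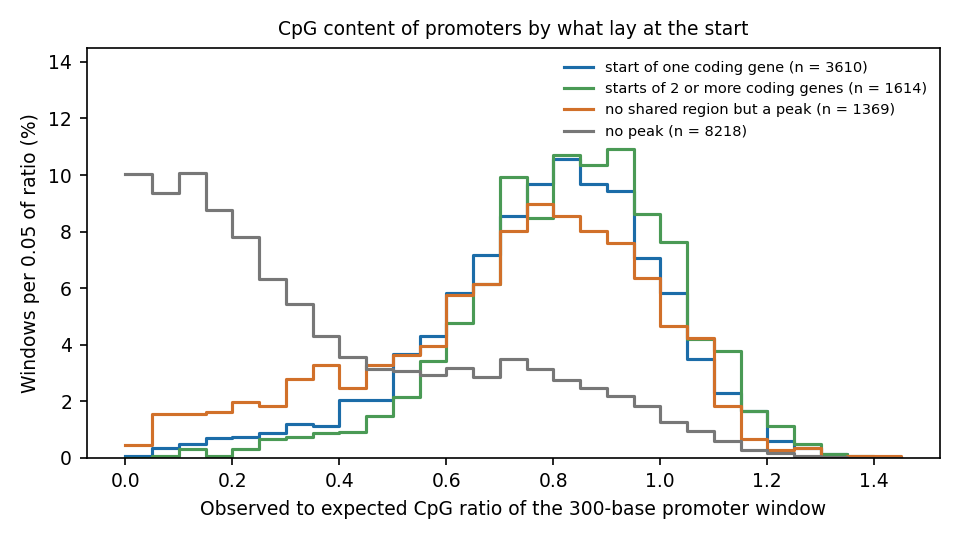
Share of promoter windows (%, per 0.05 of ratio) by observed to expected CpG ratio, for starts with a shared region at this gene alone, starts with a shared region at ends of several coding genes, starts with a peak but no shared region, and starts with no peak. Windows with a region of either kind centre near a ratio of 0.8, and those with no peak lie mostly below 0.4.

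Over all promoter windows, those with a region did not hold the RUNX core more often than others. Only these windows were searched, so a core under a peak but outside the window was not counted. The shares therefore describe promoter windows and not the whole sequence under the peaks. TGTGGT was found on either strand in 455 of 3610 windows (12.6%, 11.6 to 13.7), against 14.8% of all windows and 17.1% (16.3 to 17.9) of windows with no peak. The core holds no CpG, and windows with a region were more often CpG rich, so the shares were also taken by CpG class. GC content still differed within the CpG-rich class, with a median of 63.3% with a region and 67.0% with no peak. Among CpG-rich windows the order was the opposite: 318 of 2838 with a region (11.2%, 10.1 to 12.4) held it, and 140 of 1952 with no peak (7.17%, 6.11 to 8.403). Among the others it was 17.7% (15.2 to 20.6) with a region and 20.2% (19.2 to 21.2) with no peak. The same letters in reverse order, TGGTGT, served as a comparison of equal composition. In CpG-rich windows they were found in 8.32% (7.36 to 9.39) with a region and 8.35% (7.20 to 9.66) with no peak. Over all windows they were found in 12.3%. In the CpG-rich class the core was thus more frequent with a region than without a peak, while its reversed letters were not. In CpG-rich windows at starts of several coding genes with a shared region, the core was in 9.60% (8.15 to 11.3) and the reversed letters in 10.1% (8.62 to 11.8). The split by CpG class and the reversed letters were added after the overall shares were seen. Where the window lay wholly inside the peaks of both replicates, 124 of 906 (13.7%, 11.6 to 16.1) held the core. The other Runt core, TGCGGT, which contains a CpG, was in 10.5% (9.54 to 11.5) of windows with a region and 7.51% of all. Among CpG-rich windows its shares were close, 11.6% (10.5 to 12.9) with a region and 11.4% (10.04 to 12.9) with no peak. The longer TGTGGTT was in 3.85% (3.27 to 4.53) against 4.88% of all.

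A few promoters held the core repeatedly. With a region, 35 windows (0.97%, 0.70 to 1.35) held it at least 2 times. This was below the 1.49% of all windows and the 2.12% (1.83 to 2.45) of windows with no peak. At least 3 copies were in 5 windows with a region (0.14%, 0.06 to 0.32), against 0.10% of all windows. The 5, named after their values were seen, were Runx2, Ndufs7, which encodes a subunit of respiratory complex I, S100a6, which encodes a calcium-binding protein, Kcnn4, which encodes a calcium-activated potassium channel, and Zfp747. Kcnn4 had 4 copies, and its peaks were 328 and 336 bp wide. The S100a6 peaks were 346 and 706 bp wide.

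The GC box, the CCAAT box and the ETS core were the 3 motifs searched that were found in more windows than the RUNX core. The GC box GGGCGG, bound by SP and KLF factors, was in 71.6% (70.1 to 73.1) of windows with a region and 47.8% of all. The ETS core CCGGAA was in 31.9% (30.4 to 33.4) against 19.7%, and the CCAAT box, CCAAT, bound by NF-Y, in 44.7% (43.0 to 46.3) against 39.4%. The CRE sequence TGACGTC was in 7.26% against 4.13%, CATGCGC, part of the NRF1 site, in 9.36% against 5.08%, and AAGATGG, from the YY1 site, in 7.84% against 6.57%. The TATA box TATAAA went the other way, with 6.70% (5.93 to 7.57) against 13.9%. The AP-1 site TGANTCA was in 4.57% (3.94 to 5.30) against 7.10%, and the CArG box of SRF in 1.27% against 1.41%. The TEAD site GGAATG was searched as well and is in the plot of motif shares. All motifs were searched on both strands, in the promoter windows only. Several of these gaps were small or absent among CpG-rich windows. There the GC box was in 78.7% (77.1 to 80.1) with a region and 77.97% (76.1 to 79.8) with no peak, the AP-1 site in 3.42% (2.81 to 4.15) and 3.23% (2.53 to 4.11), and the TATA box in 5.60% (4.81 to 6.51) and 4.71% (3.86 to 5.75). The intervals stayed apart for the ETS core, at 33.7% (32.0 to 35.4) and 16.3% (14.7 to 17.995), and for the CCAAT box, at 43.7% (41.9 to 45.6) and 29.97% (27.98 to 32.0). The same held for the CRE sequence, at 7.86% (6.92 to 8.91) and 3.996% (3.21 to 4.96), the NRF1 letters, at 10.3% (9.19 to 11.4) and 5.58% (4.65 to 6.69), and the YY1 letters, at 7.89% (6.96 to 8.94) and 3.48% (2.76 to 4.39). Starts of several coding genes with a shared region, whatever their CpG content, had the GC box in 67.4%, the ETS core in 43.5% and the CCAAT box in 43.2%. With a peak but no shared region these were 63.8%, 28.6% and 32.1%.

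**Figure D4:**
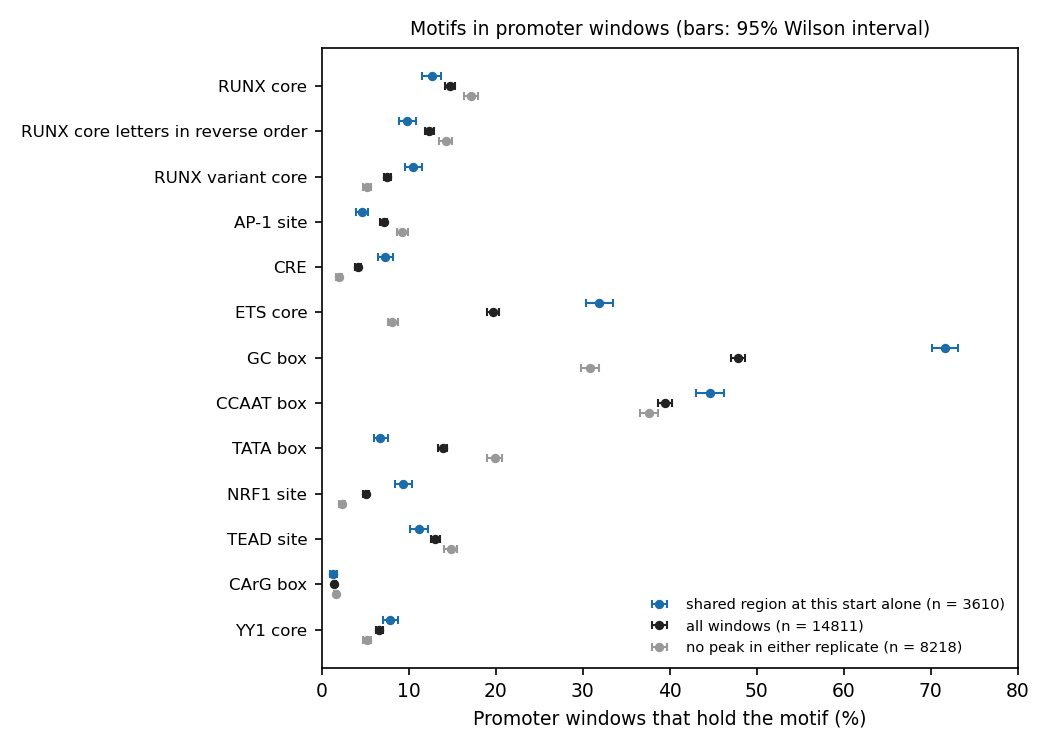
Share of promoter windows that hold each motif (%, horizontal axis), for windows with a shared region at this start alone (n = 3610), all windows (n = 14811) and windows with no peak in either replicate (n = 8218), with 95% Wilson intervals. The GC box and the ETS core show the widest gaps, and the RUNX core lies lower with a region than in all windows, as its reversed letters do.

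Of the 8 osteoblast genes followed throughout, Runx2 and Spp1 had a region at their own start, and Sp7, Bglap, Ibsp, Alpl, Col1a1 and Mmp13 had none at either end. The Runx2 midpoint lay 61 bp before the outermost start in replicate 1, and that of Spp1, which encodes osteopontin, 241 bp before it. For the other 6 the nearest shared region was between 5120 bp (Col1a1) and 88070 bp (Mmp13) from a gene end. Of 25 osteoblast matrix and mineralisation genes 7 had a region (28.0%, 14.3 to 47.6), close to the 22.7% of all coding genes. With the widest peaks came Mgp, an inhibitor of calcification (1173 and 854 bp), P4hb, a subunit of the collagen prolyl hydroxylase (1019 and 899 bp), and Lox, the enzyme that crosslinks collagen (705 and 931 bp). Fn1, Spp1, Ank and Phospho1 were the others. Of 23 osteoblast transcription factors 8 had one (34.8%, 18.8 to 55.1). All 3 RUNX genes and Cbfb were among them, with Atf4, Six2, Dlx5 and Twist1. Atf4, which drives amino acid supply for matrix synthesis, had 1093 and 1321 bp, Six2 844 and 928 bp and Runx3 765 and 842 bp. For both lists the interval holds the share of all coding genes. With replicate 1 alone, 11 of the 23 transcription factor genes had a peak at one coding gene end (47.8%, 29.2 to 67.0), and the interval lay above the 26.9% of all coding genes.

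AP-1 and early response genes had such a region in 19 of 24 cases (79.2%, 59.5 to 90.8), against 22.7% of all coding genes. With only peaks wider than the median of each list it was 11 of 24 (45.8%, 27.9 to 64.9), against 61.9% of the ER stress genes described below and 13.4% of all coding genes. Besides Dusp1 and Egr1 the widest was at Klf4, which encodes a zinc finger factor (880 and 873 bp). The core AP-1 genes Fos, Fosb, Fosl2, Jun and Junb all had one, that of Junb at its end of transcription, and Fosl1, Jund, Egr2, Egr3 and Zfp36 did not. The Jun peaks were 916 and 729 bp wide and those of Fos 590 and 598 bp. The list was not marked by width, with medians of 493 and 443 bp in the 2 replicates. Of 24 actin cytoskeleton and YAP genes 14 had a region (58.3%, 38.8 to 75.5). Zyx, for the focal adhesion protein zyxin, had 970 and 1042 bp, Amotl2, a YAP target and partner, 1136 and 789 bp, and Wwtr1, which encodes TAZ, 1188 and 601 bp. Yap1, Tead1, Lats2, Ccn1 and Ccn2 had one too, while the actin genes Actb and Actg1 did not.

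Of 29 genes of TGF-beta and BMP signalling 14 had a region (48.3%, 31.4 to 65.6), against 22.7% of all coding genes. With a limit of 500 bp it was 10 (34.5%, 19.9 to 52.7), and the interval then held the 21.4% of all coding genes. The widest were at Id1, a BMP target (1276 and 1121 bp), Smad7 (1193 and 1127 bp) and Smad6 (994 and 483 bp), both inhibitory SMADs. Smad2, Smad3, Smad4, Ski, Tgif1, Smurf1, Smurf2, Id3 and the receptors Tgfbr1 and Tgfbr2 were among the others. None of the 6 ligand genes Tgfb1, Tgfb2, Tgfb3, Bmp2, Bmp4 and Bmp7 had a region of this kind, nor did the receptor genes Bmpr1a, Bmpr2 and Acvr1 or the antagonist genes Nog and Grem1. Among mediators and targets, Smad1, Smad5, Skil and Id2 had none either. With groups this small, and the split by role made after the members were seen, this describes the list and is not a test of it.

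Most genes of protein folding had a region at an end of their own or at an end near that of another coding gene. Over all coding genes, 22.7% had a region of their own and 33.2% had either kind. Of 21 ER stress and folding genes 15 had a region of their own (71.4%, 50.04 to 86.2) and 4 more one at ends of several coding genes, and only Edem1 and Trib3 had neither. Both kinds together covered 19 of 21, against 33.2% of all coding genes. Herpud1, part of ER-associated degradation, had peaks of 1233 and 1215 bp, Atf6, a sensor of ER stress, 1145 and 1162 bp, and Calr, for the chaperone calreticulin, 957 and 923 bp. Of 19 cytosolic heat shock genes 10 had a region of their own (52.6%, 31.7 to 72.7) and 7 one at a shared end. Hsp90ab1 had 1395 and 1265 bp, Tcp1 966 and 945 bp and Hspa4 873 and 903 bp. Of 38 proteasome genes 19 had one (50%, 34.8 to 65.2), with Psma5, Psmb6 and Psmb5 first, and 8 more had one at a shared end.

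Both kinds of ribosomal protein genes had regions of their own and regions at shared ends. Among all coding genes 22.7% had a region of their own, and 33.2% had one of their own or at a shared end. Of 77 cytoplasmic ribosomal protein genes 43 had one of their own (55.8%, 44.7 to 66.4) and 14 one at a shared end. Rpl7 had 866 and 924 bp and Rps29 988 and 816 bp. Of 77 mitochondrial ribosomal protein genes 26 had one of their own (33.8%, 24.2 to 44.9) and 30 one at a shared end. Either kind was at 57 genes of the first list (74.0%) and 56 of the second (72.7%), and the difference in kind was not tested. For regions of their own, the interval of the mitochondrial list held the share of all coding genes in some alternatives. These were a reciprocal overlap of 50% and only the peaks above the median width. Mrpl58 aside, Mrps36 (811 and 878 bp) and Mrps28 (740 and 730 bp) were the widest. Translation initiation factors stood at 30 of 53 (56.6%, 43.3 to 69.0), with Eif3c (940 and 1004 bp), Eif1 (907 and 946 bp) and Eif3b (756 and 977 bp).

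Other lists of broadly expressed genes had shares from 37.1% to 53.8%, apart from solute carriers, against 22.7% of all coding genes. Except for solute carriers, the interval of each list holds 40.1%, the share of CpG-rich starts with such a region. That share counts starts only, and the CpG content of the lists was not compared. Among RNA polymerase II subunits and general factors 11 of 23 had a region (47.8%, 29.2 to 67.0), led by Gtf2a1, Gtf2f1 and Polr2g, and 8 more had one at a shared end. Splicing factors were at 14 of 26 (53.8%, 35.5 to 71.2), where Srsf5 had 1418 and 1137 bp and Snrnp70 1148 and 1107 bp. Cell cycle and replication genes were also at 14 of 26, with Cdk4 (969 and 1141 bp), Rrm2 (819 and 996 bp) and Mcm5 (666 and 726 bp). Citric acid cycle and glycolysis genes were at 12 of 23 (52.2%, 33.0 to 70.8), with Hk2 (1117 and 976 bp), Ogdh (1109 and 978 bp) and Cs (701 and 783 bp), and complex I genes at 13 of 35 (37.1%, 23.2 to 53.7), with Ndufv2, Ndufb2 and Ndufa3. Rab GTPase genes were at 22 of 55 (40%, 28.1 to 53.2), with Rab1a, Rab11b and Rab40c. Zinc finger (Zfp) genes were at 156 of 360 (43.3%, 38.3 to 48.5), with Zfp775, Zfp1 and Zfp407, and solute carriers, at 76 of 356 (21.3%, 17.4 to 25.9), were near the background. Slc25a39, Slc35e4 and Slc35f5 had the widest peaks among those.

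The listed genes of other tissues had no region at an end of their own, against 22.7% of all coding genes with one. None of the 16 genes of neurons, 16 of liver, 17 of blood cells and 16 of skeletal muscle had one, 0 of 65 in all, which allows a share of up to 4.62% (3 counts of 65). Of these only Actn3, a muscle actinin gene, had one at ends of several coding genes. Chemosensory receptor genes were nearly devoid of them. Of 1100 olfactory receptor genes Olfr654 was the 1 with a region (0.091%, 0.016 to 0.51), at its end of transcription and narrow in both replicates (220 and 312 bp). Of 352 vomeronasal receptor genes 3 had one (0.85%, 0.29 to 2.48): Vmn1r59 and Vmn1r57 at the end of transcription and Vmn2r29 at the start. Keratins were at 1 of 53, Krt10, at its end of transcription (400 and 391 bp). Cytochrome P450 genes were at 7 of 97 (7.22%, 3.54 to 14.2), with Cyp1a1 (831 and 730 bp), Cyp20a1 (608 and 893 bp) and Cyp4f16 (593 and 460 bp). Peaks in the lists are called peaks, and a promoter without one may carry signal below the calling limit.

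**Figure D5:**
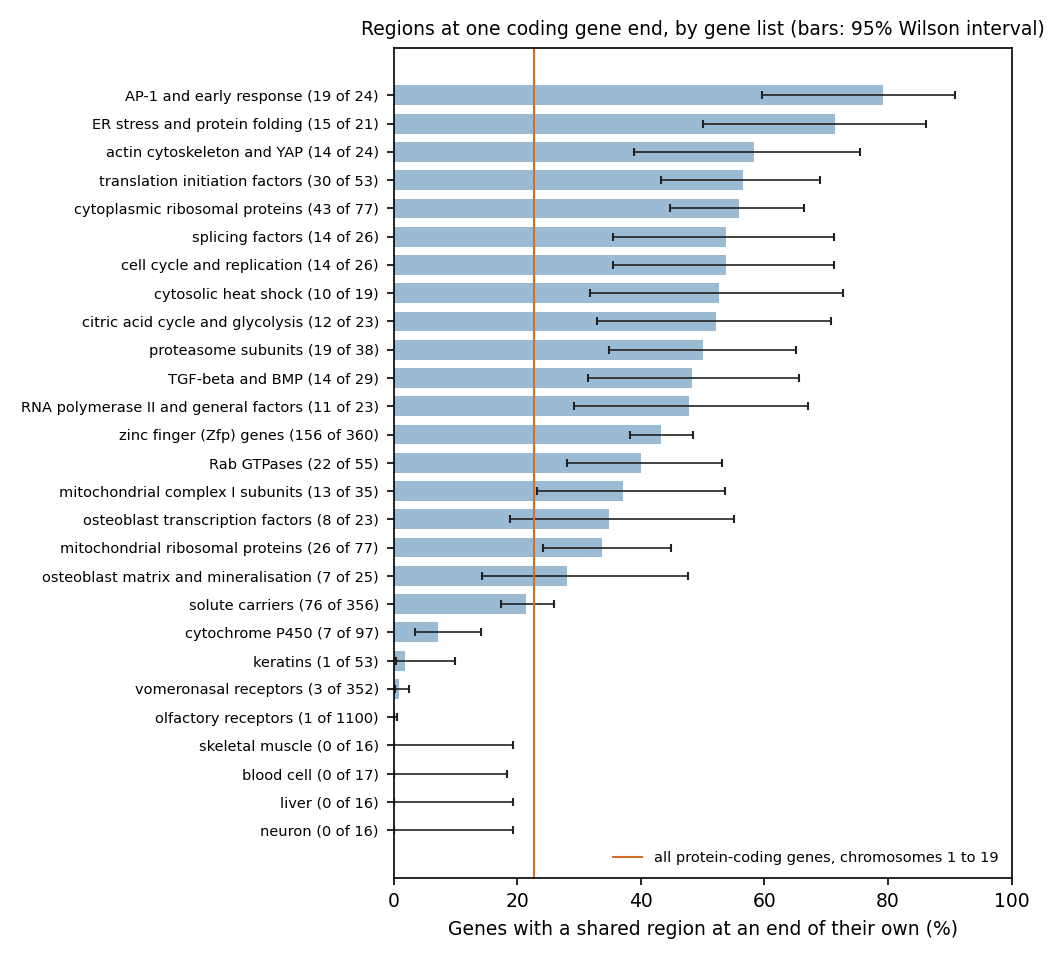
Share of the genes of each list with a shared region at an end of their own (%), with the counts beside the names, 95% Wilson intervals and a vertical line at the 22.7% of all protein-coding genes on chromosomes 1 to 19. AP-1 and early response genes are at 19 of 24, ER stress genes at 15 of 21, and the lists of other tissues (neurons, liver, blood, muscle) are at 0.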

How the data were processed

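CUT&Tag libraries for RUNX2 from untreated MC3T3-E1 cells were made with a NovoNGS kit and sequenced as paired ends, per the labels' protocols. The submitters' processing notes name fastp 0.19.6, Bowtie2 and deepTools and the build GRCm38 (mm10). No source used here names the peak caller or its threshold. The authors deposited 1 list of peaks per replicate, with 5 columns and no header: running number, chromosome, start, end and width in bp, with no score.

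Genes came from RefSeq GRCm38.p6. Strand and 300-base promoter windows came from the RefSeq promoter table, which gave strand for 16457 of 20665 coding genes on chromosomes 1 to 19 and a window within 1 kb of the outermost start for 14811. Merging, placing and counting used Python 3.11.15, numpy 2.4.6 and scipy 1.17.1. Overlap counts equalled those of bedtools 2.31.1, and all 599 regions planted in simulated lists were placed as planted. Shares carry 95% Wilson intervals, which cover counting error only, and genes or regions are not replicates of a condition.

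The regions and the 27 gene lists were chosen with earlier results of these data known. Named are the 15 regions with the widest peaks by mean rank, 3 genes per list, 5 genes with regions at both ends, those with most regions, 8 osteoblast genes, start regions with and without the RUNX core, the narrowest regions and those at the limit of 1 kb. Some members that the rule names are not reported here. Alternatives were a reciprocal overlap of 50%, only the peaks above the median width, limits of 500 bp and 2 kb, positions from replicate 2, each replicate alone, and other forms of the core.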

Additional observations from a re-analysis of the deposited data

Results flagged for a closer look

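Chromosome X was outside the choice of regions and holds regions of the same kind, which drew attention as signal in data the report did not use. There were 114 shared regions at an end of exactly 1 protein-coding gene on chromosome X. They lay at 113 of its 966 protein-coding genes (11.7%, 95% Wilson interval 9.82 to 13.9), against 22.7% on chromosomes 1 to 19. The difference was not tested.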

How the results depend on the processing

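The share at starts of transcription among regions with known strand stayed between 93.9% and 97.8% in every alternative run, and the share of promoters with the RUNX core kept within its interval under each change of the regions. With a reciprocal overlap of at least 50%, 28.2% of shared regions lay at one coding gene end, 18.2% of coding genes had one, 64.9% of peaks recurred and the median width was 556.5 bp. With only peaks wider than 395 bp, the median of each list, 2789 regions remained, 30.3% of shared regions and 13.4% of genes, with 97.4% at starts, 76.3% recurring and a median of 652.5 bp. A limit of 500 bp gave 24.9% of shared regions, 21.4% of genes, 97.8% at starts and 85.1% recurring. A limit of 2 kb gave 28.5%, 23.7%, 93.9% and 79.99% for the same shares and a median width of 524.0 bp. With each replicate alone, 21.9% to 22.1% of peaks lay at one coding gene end, 26.9% to 27.2% of genes had one, 94.9% to 95.1% were at starts, the median was 472.5 to 481.0 bp, and 5828 to 5875 peaks were counted. The RUNX core of 7 bases was in 3.85% of promoters, either core in 22.1%, and in CpG-rich windows alone, a split chosen after seeing the data, the core was in 11.2%. Of 189 list counts under the 7 alternatives, 164 stayed within 1.5 times the main count. For 18 lists the interval kept its side of the share of all coding genes throughout. For 9 it did not: osteoblast transcription factors, TGF-beta and BMP, RNA polymerase II, mitochondrial ribosomal proteins, complex I and the lists of other tissues. The recurring share was not recomputed with positions from replicate 2 or with 1 replicate, where it has no meaning. No paired analysis was possible because the 2 replicates form 1 group. Depth is unknown, so no limit on unseen signal can be given.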

Other observations

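The share of coding genes with such a region varied between chromosomes. It was lowest on chromosome 14, 13.04% (95% Wilson interval 10.9 to 15.5), and chromosome 7, 16.6% (15.05 to 18.3), and highest on chromosome 10, 28.3% (25.6 to 31.1). Without the olfactory and vomeronasal receptor genes, of which chromosome 7 holds 415 and chromosome 14 holds 41, the shares were 20.6% on chromosome 7, 13.7% on chromosome 14 and 30.6% on chromosome 10.

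Genes of middle length had a region at their start most often. Olfactory and vomeronasal receptor genes, nearly devoid of such regions, were not taken out of these length classes. The share was 14.4% (13.5 to 15.3) for genes under 10 kb, 27.8% (26.5 to 29.0) for 10 to 30 kb, 29.5% (28.1 to 31.0) for 30 to 100 kb and 21.0% (19.2 to 23.0) from 100 kb. Among genes from 100 kb, 249 of 372 with a start region (66.9%, 62.0 to 71.5) also had a shared region inside the gene over 1 kb from any gene end, against 708 of 1400 without one (50.6%, 48.0 to 53.2). In the 3 shorter classes the share was not higher with a start region: 25.3% against 28.0% for 30 to 100 kb, 10% against 11.8% for 10 to 30 kb, and 1.65% against 1.86% under 10 kb.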
